A study of Mus musculus with 4 samples.

Results

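The genes described here were the epidermal growth factor (EGF) family ligands Hbegf, Areg, Ereg and Tgfa, the ERBB receptors Egfr, Erbb2 and Erbb3, and Errfi1, the feedback inhibitor of these receptors, in cultured mouse female germline stem cells (FGSCs). They were chosen by name, with earlier results of the same comparison known, since Hbegf was among its largest falls. Of the 8 genes, 6 were listed among the 12701 genes of the expression table, and the 2 others, Tgfa and Erbb3, are not analysed here. RNA-seq compared FGSCs, which derive from the ovary, after infection with a lentivirus carrying either a control hairpin (shNC, 2 libraries) or a hairpin that targets the lncRNA Gm26917 (shGm26917, 2 libraries). Both groups had thus been infected, and infected cells were selected with puromycin or blasticidin according to the vector. The study calls its replicates biological, but whether they were separate cultures or separate infections, and which of 3 hairpins was used for sequencing, was not given in the sources used here. All p-values reflect only the spread among these libraries, which may in part be technical.

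Ligands of the EGF family are made as membrane-anchored precursors, and metalloproteases of the ADAM family release the active factor from the cell surface. Hbegf, Areg, Ereg, Tgfa, Btc and Egf bind EGFR, some of them also ERBB4, while neuregulins such as Nrg1 bind ERBB3 and ERBB4, and ERBB2 has no known ligand and serves as a dimer partner. Receptor activation drives the RAS-ERK cascade and induces early response genes, several ligand genes and Errfi1, whose product MIG6 binds the receptor kinase and closes a negative loop. In the ovary, Areg, Ereg and Btc are known as the factors that granulosa cells make after luteinizing hormone to act on the follicle.

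The perturbation is shown first, since every comparison below rests on it. The study lists 3 target sequences against Gm26917, each of 19 bases, of which the first lies in the annotated Gm26917 (chr17:39844007-39844025, plus strand, GRCm38) and the other two in the neighbouring lncRNA Gm42418 (chr17:39846994-39847012 and chr17:39847713-39847731). They were, in the sense direction:
target 1: gcgtttgctctctcgtcta
target 2: gctccaatagcgtatatta
target 3: gcgatttgtctggttaatt
Against the annotated transcripts of the 9 listed family genes, on both strands, 0 genes held a whole target, and the longest stretch in common was 10 bases for target 1 (in Ereg), 10 bases for target 2 (in Btc) and 9 bases for target 3 (in Ereg and Egfr). Levels are in CPM, read counts scaled so that libraries of unequal depth can be compared. Gm26917 stood at 155 and 157 CPM in the shNC libraries and at 136 and 104 CPM in the shGm26917 libraries, and its log2 fold change of -0.39 was not called (limma, adjusted p = 0.0696). It was -0.58 and called without shGm26917 replicate 1 (adjusted p = 0.000278) and -0.19 and not called without shGm26917 replicate 2, with an adjusted p of up to 0.516 when a library was left out. With the replicate number as a block it was called (adjusted p = 0.0239). The study also assessed the Gm26917 knockdown by RT-qPCR, which is not part of the data used here. Gm42418 stood at 2882 and 3462 CPM against 729 and 687 CPM (-2.16, adjusted p = 5.57e-05). Both were thus lower in both shGm26917 libraries, but the targeted gene as annotated changed far less than its neighbour. The study's probe positions for Gm26917 run past the length of the annotated gene, so its Gm26917 may be longer than the annotation. Whether it takes in Gm42418 was not tested. RefSeq lists Gm42418 under Rn18s-rs5, a pseudogene of 18S ribosomal RNA (chr17:39846354-39848202), and 2 of the targets lie inside it. How ribosomal RNA was removed from the libraries was not given, and its part in the Gm42418 difference was not tested.

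The listed genes summed to between 755159 and 771715 CPM per library. From the steps between low values, 1 read was worth 0.0628 and 0.0389 CPM in the shNC libraries and 0.0279 and 0.0316 CPM in the shGm26917 libraries, so the shNC libraries were the shallower ones, replicate 1 most of all. Changes are given as log2 of the ratio of shGm26917 to shNC after adding 0.5 CPM, from a limma fit over all genes, and a gene was called at an adjusted p under 0.05, corrected across the whole table (Benjamini-Hochberg). By this rule 23.1% of all listed genes were called, 11.5% lower and 11.6% higher in shGm26917. Of the 6 listed genes under study, 3 were called lower (Hbegf, Ereg and Errfi1) and 3 were not called (Areg, Egfr and Erbb2). Because these genes were picked with this comparison in view, their values are a description and no p is given for them. The lowest of their values was 1.89 CPM, so all 6 were above 1 CPM in every library.

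Hbegf, the heparin-binding EGF-like growth factor, carried the largest change of the family. It stood at 28.6 and 33.6 CPM in the shNC libraries and at 8.89 and 8.73 CPM in the shGm26917 libraries. The groups lay far apart, and the shGm26917 libraries were close to each other. The mean dropped from 31.1 ± 3.52 CPM to 8.81 ± 0.11 CPM (SD, n = 2), which is 28.3% of the shNC level, and the log2 fold change was -1.76 (95% interval -1.99 to -1.53). Among all 12701 genes this was the 26th lowest log2 fold change. The gene lies on the minus strand of chromosome 18 (36504927 to 36515805, mm10). In bulk RNA, fewer cells that express a gene and less of its RNA per cell cannot be told apart, here and below.

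Ereg, epiregulin, followed in size. Its levels were 29.2 and 36.8 CPM in the shNC libraries and 11.4 and 10.7 CPM in the shGm26917 libraries, again without overlap. Over all genes, 32.7% were lower in shGm26917 without overlap. The Ereg mean was 33.0 ± 5.35 CPM against 11.1 ± 0.46 CPM (SD, n = 2), or 33.6% of shNC. The log2 fold change of Ereg was -1.52 (95% interval -1.79 to -1.26). An exon of an unlisted gene on the opposite strand, Gm19610, shares 141 bases with Ereg exons, and strand use in counting was not given.

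Areg, amphiregulin, was a low gene whose shNC libraries disagreed. It had 4.33 and 2.64 CPM in the shNC libraries and 1.89 and 2.05 CPM in the shGm26917 libraries, which by the steps above came to 69, 68, 68 and 65 reads. Both shGm26917 values lay below both shNC values, but the shNC libraries differed from each other by more than the lower of them differed from shGm26917. The log2 fold change was -0.66 (95% interval -1.16 to -0.15), and Areg was not called. Without shNC replicate 2 it was -0.97 and called, and without shNC replicate 1 it was -0.35 and not called, while with all 4 libraries and the replicate number as a block it was called. The Areg call thus depended on the control library used and on the model.

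**Figure D1:**
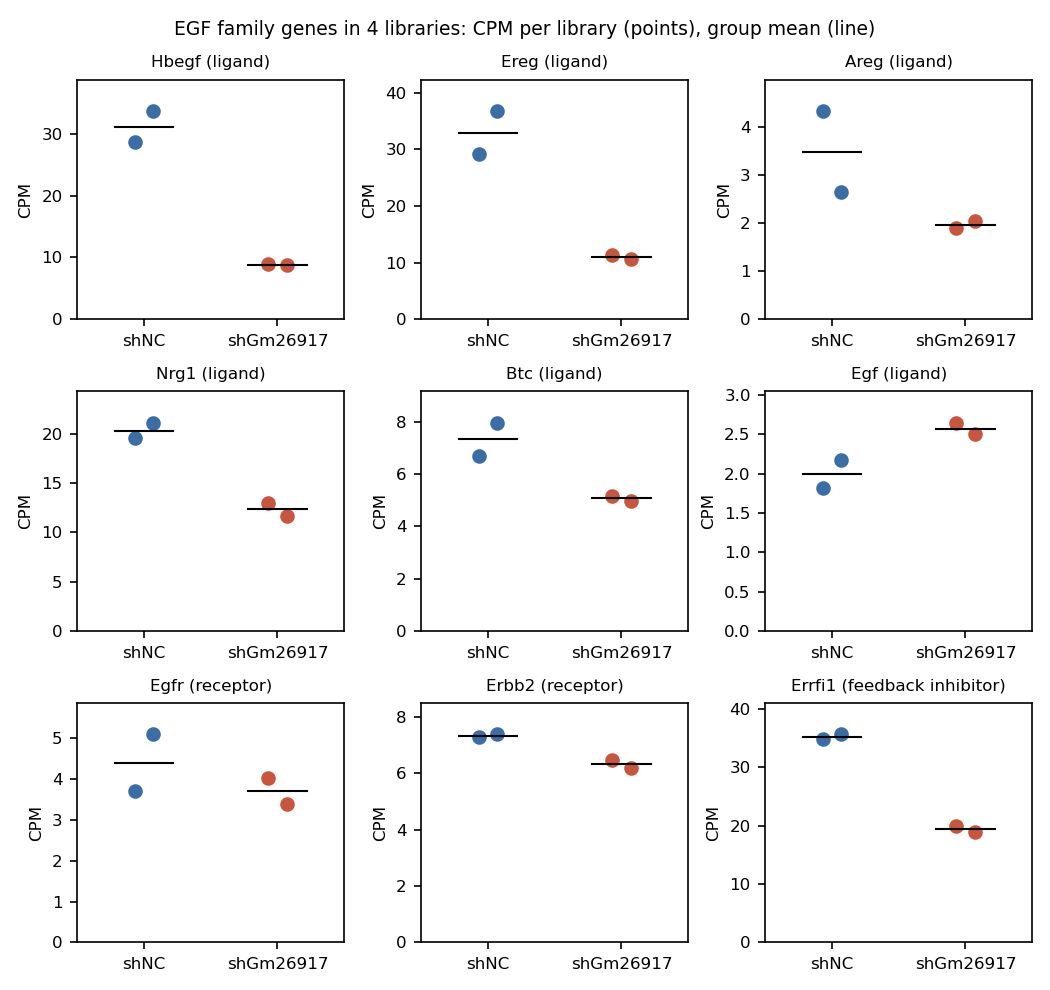
CPM of the 9 listed EGF family genes, each panel with its own axis from 0; points are the 4 libraries and the line is the group mean. Hbegf, Ereg and Errfi1 separate widely between shNC and shGm26917, whereas the Egfr values of the groups overlap.

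The remaining ligands that were listed, Nrg1, Btc and Egf, were not among the genes chosen. Nrg1, neuregulin 1, a ligand of ERBB3 and ERBB4, fell from 19.5 and 21.1 CPM to 13 and 11.7 CPM, with a log2 fold change of -0.70 (95% interval -0.91 to -0.48, limma, adjusted p = 0.00281). Btc, betacellulin, fell from 6.72 and 7.97 CPM to 5.18 and 4.96 CPM (log2 fold change -0.49, limma, adjusted p = 0.0296). The shGm26917 values of both genes lay below all shNC values, as was the case for 32.7% of all genes. The Btc call did not hold without shNC replicate 2 (log2 fold change -0.37, adjusted p = 0.0668) or without shGm26917 replicate 1 or 2 (-0.52 and -0.46, adjusted p = 0.0732 and 0.121). Egf itself stood at 1.82 and 2.18 CPM in the shNC libraries and at 2.65 and 2.50 CPM in the shGm26917 libraries. Its log2 fold change was 0.30 (95% interval -0.08 to 0.68, limma, adjusted p = 0.219), which was not called. Egf was the only listed ligand with a value above 0 on the log2 scale. Over all 6 listed ligands the median log2 fold change was -0.68, beside -0.0058 over all genes. This median is a description only, since it includes Hbegf, Ereg and Areg, which were chosen with this comparison known.

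The receptors differed little between the groups. Egfr, the receptor of Hbegf, Areg and Ereg, was at 3.70 and 5.09 CPM in the shNC libraries and at 4.01 and 3.38 CPM in shGm26917. These groups overlapped, and the log2 fold change of -0.21 had a 95% interval of -0.62 to 0.19. Erbb2 was at 7.28 and 7.39 CPM in the shNC libraries and at 6.46 and 6.20 CPM in shGm26917. Its groups did not overlap, as was the case for 64.2% of all genes, and its log2 fold change was -0.20 (95% interval -0.45 to 0.05). Neither receptor was called, and the intervals leave room for a moderate fall of either. Exons of Erbb2 share 9 bases with Mien1 on the opposite strand. Erbb4, the other neuregulin receptor, had no listed value and is not analysed here.

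Errfi1, which encodes the receptor inhibitor MIG6, had 34.8 and 35.7 CPM in the shNC libraries and 19.9 and 18.8 CPM in shGm26917. Libraries of a group agreed closely and the groups were well separated. The mean was 35.2 ± 0.63 CPM against 19.4 ± 0.74 CPM (SD, n = 2), or 55.0% of shNC, and the log2 fold change was -0.85 (95% interval -1.01 to -0.68). Of the 6 listed genes under study, 5 had groups without overlap, all lower in shGm26917, beside 32.7% of all genes that were lower without overlap.

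**Figure D2:**
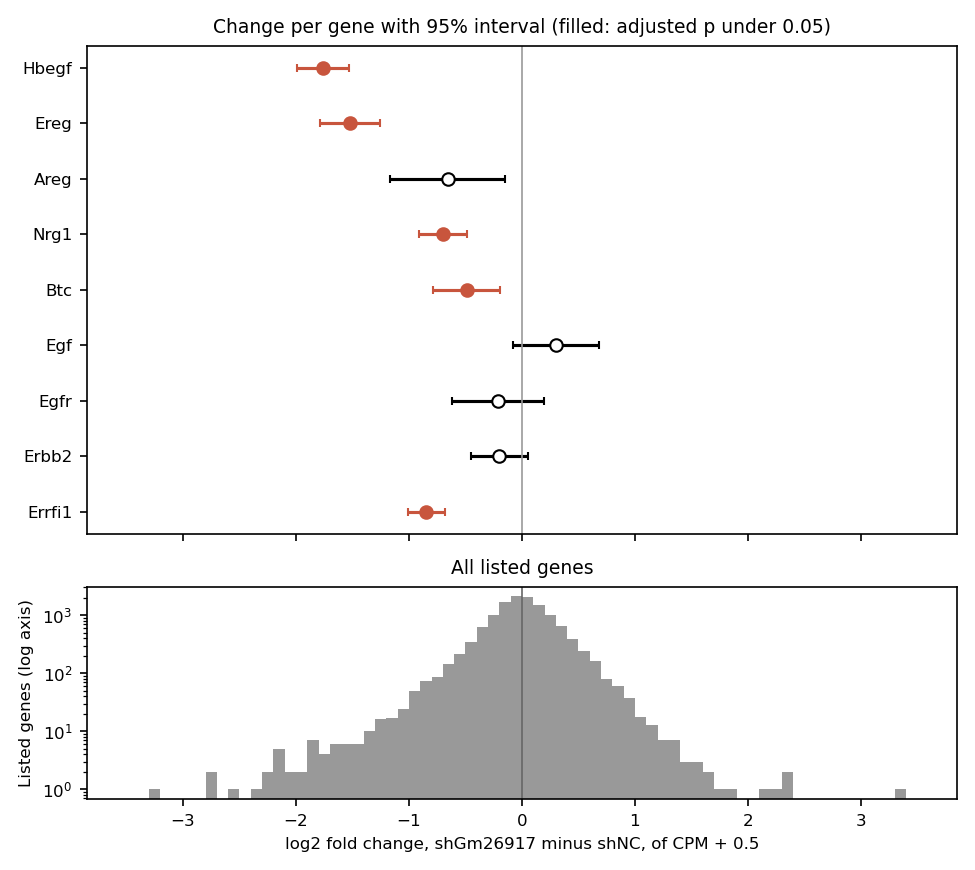
Top, log2 fold change (shGm26917 against shNC, CPM plus 0.5) of the 9 listed family genes with the 95% interval of the limma fit, filled where the adjusted p was under 0.05. Bottom, the same quantity for all 12701 genes on a log count axis; Hbegf at -1.76 and Ereg at -1.52 lie in the left tail, while Egfr and Erbb2 lie near the centre.

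Levels of different genes can be set side by side only per length, so CPM was divided by the kilobases of annotated exon of each gene. Exons of all annotated transcripts were merged, 18 transcripts for Nrg1 but 1 each for Areg and Ereg. The order, and the ligand shares below, may thus in part reflect the annotation. In shNC the order of the means was Errfi1 (9.83 ± 0.175 CPM per kb), Ereg (7.99 ± 1.29), Hbegf (6.44 ± 0.73), Areg (2.87 ± 0.98), Nrg1 (1.96 ± 0.11), Btc (1.62 ± 0.197), Erbb2 (1.41 ± 0.015), Egfr (0.39 ± 0.087) and Egf (0.18 ± 0.022; SD, n = 2). The top 3 genes were thus the 3 of the chosen genes that were called lower, and the ligands Ereg and Hbegf were each far above Egfr. Ereg lay above Hbegf in all 4 libraries, though in shNC its lower value (7.07) and the higher value of Hbegf (6.95) nearly met. In shGm26917 the order began Errfi1 (5.41 ± 0.21), Ereg (2.68 ± 0.11), Hbegf (1.82 ± 0.024) and Areg (1.62 ± 0.093), and Erbb2 (1.22 ± 0.036) stood level with Nrg1 (1.19 ± 0.09) and Btc (1.12 ± 0.034).

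Summed over the 6 listed ligands, the level per length was 20.1 and 22 CPM per kb in shNC and 8.79 and 8.55 CPM per kb in shGm26917. The groups did not overlap, and the sum is given as a description with no test, since its genes were chosen with this comparison known and an exact permutation test of 2 libraries against 2 cannot give a two-sided p under 0.33. Hbegf and Ereg together made up 64.7% and 72.0% of the ligand sum in the shNC libraries and 52.3% and 51.6% in the shGm26917 libraries. Areg, whose own level was not called, made up 17.7% and 9.88% in shNC and 17.7% and 19.8% in shGm26917.

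**Figure D3:**
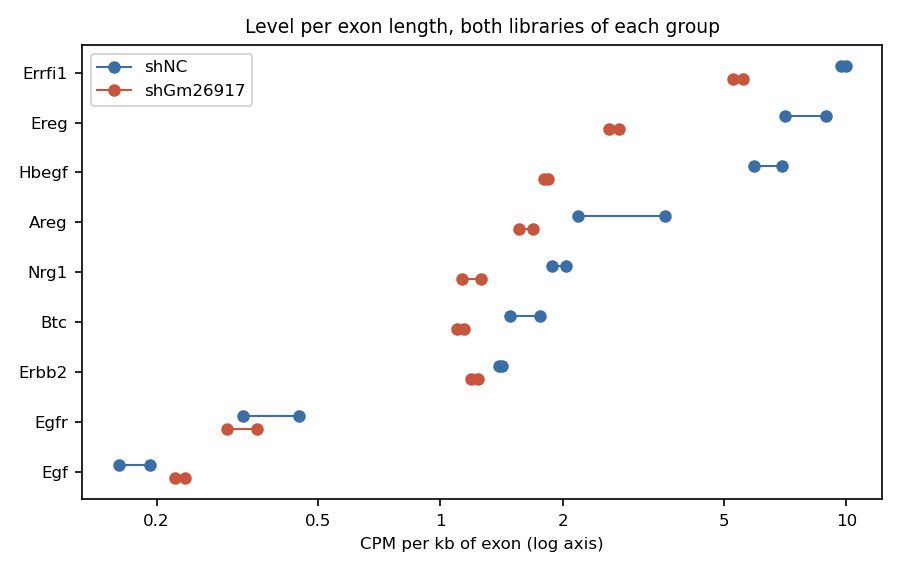
CPM per kilobase of annotated exon for the 9 listed family genes, on a log axis; each pair of joined points is the 2 libraries of a group. Errfi1, Ereg and Hbegf lead in both groups, and Egfr and Egf are lowest.

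Ereg, Areg and Btc are neighbours on mouse chromosome 5. Ereg (91074622 to 91093646, plus strand, mm10) is followed by Areg (91139599 to 91148432, plus strand), whose start lies 65 kb beyond that of Ereg, and by Btc (91357261 to 91402994, minus strand). The next listed gene before them, Mthfd2l, an enzyme gene of folate metabolism outside the family, had 13.3 and 14.8 CPM in the shNC libraries and 11.9 and 11.6 CPM in shGm26917 (log2 fold change -0.25, limma, adjusted p = 0.0933) and was not called. Within the cluster the log2 fold changes were -1.52 for Ereg, -0.66 for Areg and -0.49 for Btc. Of these, Ereg and Btc were called lower, and the differences between their log2 fold changes were not tested.

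Promoter sequences are shown for Areg and Errfi1, because their windows hold the same short motif. RefSeq windows of 300 bases (250 before and 50 after a transcript start, GRCm38.p6) were searched. They were at hand for 6 of the 9 listed family genes, in 8 windows. Of the 6 listed genes under study, 4 were among them (Areg, Egfr, Erbb2 and Errfi1). Hbegf, Ereg and Nrg1 had no window, so the search does not cover their promoters. Letters of the cAMP response element (CRE), TGACGTCA, were found in 2 of the 8 windows and are given in capitals. The windows of Areg (chr5:91139349-91139648, plus strand) and Errfi1 (chr4:150854820-150855119, plus strand, the downstream of its pair of windows) were:
Areg: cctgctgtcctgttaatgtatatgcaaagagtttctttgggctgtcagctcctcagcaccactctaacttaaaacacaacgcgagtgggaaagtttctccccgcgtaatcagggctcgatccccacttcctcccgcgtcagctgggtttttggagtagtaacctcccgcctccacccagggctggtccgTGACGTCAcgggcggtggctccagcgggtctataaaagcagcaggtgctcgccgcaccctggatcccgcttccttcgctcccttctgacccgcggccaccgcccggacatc
Errfi1: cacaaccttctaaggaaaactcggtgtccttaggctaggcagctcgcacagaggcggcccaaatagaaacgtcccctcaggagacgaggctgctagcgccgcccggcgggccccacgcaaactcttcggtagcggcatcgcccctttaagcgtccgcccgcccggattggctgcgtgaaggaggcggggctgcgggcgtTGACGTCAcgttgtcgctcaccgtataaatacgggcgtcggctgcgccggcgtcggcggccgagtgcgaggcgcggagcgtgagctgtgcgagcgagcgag
The match begins 61 bases before the transcript start in Areg and 51 bases before it in Errfi1. Of all 32851 windows, 1.79% held the CRE. Letters of AP-1 (TGANTCA, in 7.81% of all windows), of EGR factors (GCGNGGGCG, 5.55%) and of the CArG box of serum response factor (1.63%) were in 0 of the 8 family windows, and the ETS letters CCGGAAGT (3.89%) were in 1, an Egf window. Both strands were searched, and none of the matches overlapped another. A match of letters describes the window and is not evidence of a bound factor.

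The wider pathway was read from lists written with earlier results of these data known. Without the genes under study, the 7 lists held 107 listed genes, of which 46 were called lower and 7 higher, beside 11.5% lower and 11.6% higher over all genes. Their median log2 fold change was -0.15, beside -0.0058 over all genes. The count of 7 was 2 without either shGm26917 replicate and 12 without shNC replicate 1, whereas the lower calls ranged from 35 to 50 with a library left out.

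Among 17 listed genes of ligand shedding and processing, 4 fell and 2 rose, beside 11.5% of all genes called lower and 11.6% called higher. The rises, 2 of 17, were close to the share over all genes. Timp1, a secreted inhibitor of metalloproteases, fell from 97.6 and 129 CPM to 48.7 and 53.0 CPM (log2 fold change -1.14, limma, adjusted p = 0.00387). Adam19, a protease that can cleave neuregulin precursors, fell from 11.6 and 12.8 CPM to 6.27 and 5.69 CPM (-0.97, adjusted p = 0.00167). Cd9, a tetraspanin that associates with the Hbegf precursor, fell from 17.9 and 18.4 CPM to 10.7 and 12.0 CPM (-0.66, adjusted p = 0.00338). The genes that fell were thus a metalloprotease inhibitor, proteases and a precursor partner. The related inhibitor genes Timp2 and Timp3 were not called (-0.18 and -0.07, adjusted p = 0.0901 and 0.67). Adam9 was the other gene that fell (-0.31, adjusted p = 0.0168), while Adam10 and the proprotein convertase gene Furin rose (0.25 and 0.24, adjusted p = 0.0193 and 0.0207). Adam17, the main sheddase of Hbegf, Areg and Ereg, stood at 42.8 and 38.8 CPM against 43.1 and 41.6 CPM (log2 fold change 0.05, 95% interval -0.11 to 0.22, adjusted p = 0.609). Neither Adam10 nor Furin was called without shGm26917 replicate 1 (adjusted p = 0.111 and 0.147) or 2 (0.0774 and 0.067), nor was Adam9 without replicate 2 (0.128). Limma without trend and robust moderation called none of Adam10, Furin and Adam9 (adjusted p = 0.0832, 0.0833 and 0.0784). The median of the list was -0.07.

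Negative regulators of ERBB receptors moved mostly down. Of 19 listed, 10 were called lower, Errfi1 among them, and 1 higher, and the median log2 fold change was -0.24. Over all genes, 11.5% were called lower and 11.6% higher. Lrig1, a membrane protein that promotes loss of ERBB receptors, fell from 16.6 and 17.5 CPM to 9.81 and 9.83 CPM (log2 fold change -0.76, limma, adjusted p = 0.00167). Stam, which sorts internalised receptors in endosomes, fell from 95.4 and 101 CPM to 67.1 and 67.4 CPM (-0.55, adjusted p = 0.00126). Rasa1, a GTPase-activating protein of RAS, fell from 143 and 150 CPM to 108 and 107 CPM (-0.45, adjusted p = 0.00218). For all 3, which were named for their small p, both shGm26917 libraries lay below both shNC libraries, as for 32.7% of all genes. Socs4, a suppressor of cytokine signalling that also targets EGFR, was the gene that rose (0.19, adjusted p = 0.0404), and it was not called without shGm26917 replicate 1 or 2 (0.186 and 0.23).

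Downstream of the receptors, 5 of 24 listed adaptor and proximal signalling genes fell, beside 11.5% of all genes called lower. Src, the tyrosine kinase gene, fell from 19.1 and 16.2 CPM to 10.3 and 10.3 CPM (log2 fold change -0.74, limma, adjusted p = 0.00329). The others were the adaptor gene Nck1 (-0.38, adjusted p = 0.0118), the kinase subunit gene Pik3cb (-0.36, 0.014), Stat5b (-0.26, 0.0152) and the receptor substrate gene Eps8 (-0.24, 0.0192). These 5 became 1 without shGm26917 replicate 1, 3 without shGm26917 replicate 2 and 9 without shNC replicate 2, and 4 genes were called higher without shNC replicate 1. The list had a median of -0.10. The adaptor genes Grb2 and Shc1, which link the receptors to RAS, did not pass (0.11 and 0.10, adjusted p = 0.315 and 0.269).

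The RAS-ERK core showed calls in both directions. Of 15 listed genes, 3 rose, Ksr1 and Rps6ka3 among them, and Rras and Mapk3 fell, with a median log2 fold change of 0.0098. The falls, 2 of 15, were close to the 11.5% of all genes called lower, and 11.6% of all genes were called higher. Ksr1, a scaffold of RAF and MEK, rose from 22.7 and 21.5 CPM to 37.1 and 33.4 CPM (log2 fold change 0.66, limma, adjusted p = 0.00196). Rras, a RAS-related GTPase gene, fell from 10.9 and 11.0 CPM to 7.47 and 7.37 CPM (-0.53, adjusted p = 0.0085). Rps6ka3 was at 0.21 (adjusted p = 0.0439) and Mapk3, which encodes ERK1, at -0.23 (0.0306). Without either shGm26917 replicate, Ksr1 was the only gene of the list called higher and Rras the only gene called lower.

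EGF-inducible genes, those known to respond early to growth factors, fell in 24 of 30 listed cases, and Myc was the gene that rose. Beside this, 11.5% of all genes were called lower and 11.6% higher. The median log2 fold change of the list was -0.67. Its largest falls were those of Fos (5.34 and 5.64 CPM against 1.0 and 0.85 CPM, log2 fold change -2.07, limma, adjusted p = 0.000423) and Ptgs2 (-1.91, adjusted p = 4.91e-05). Egr1 and Plau fell by 1.80 and 1.64 on the log2 scale, and the ERK phosphatase gene Dusp6 by 1.16. The 5 others, Etv5 (-0.04, adjusted p = 0.758), Spry4 (-0.11, 0.458), Spred2 (0.09, 0.424), Atf3 (-0.20, 0.21) and Il6 (-0.12, 0.481) did not pass. Myc stood at 135 and 132 CPM in the shNC libraries and at 235 and 237 CPM in shGm26917 (0.83, adjusted p = 0.000214).

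**Figure D4:**
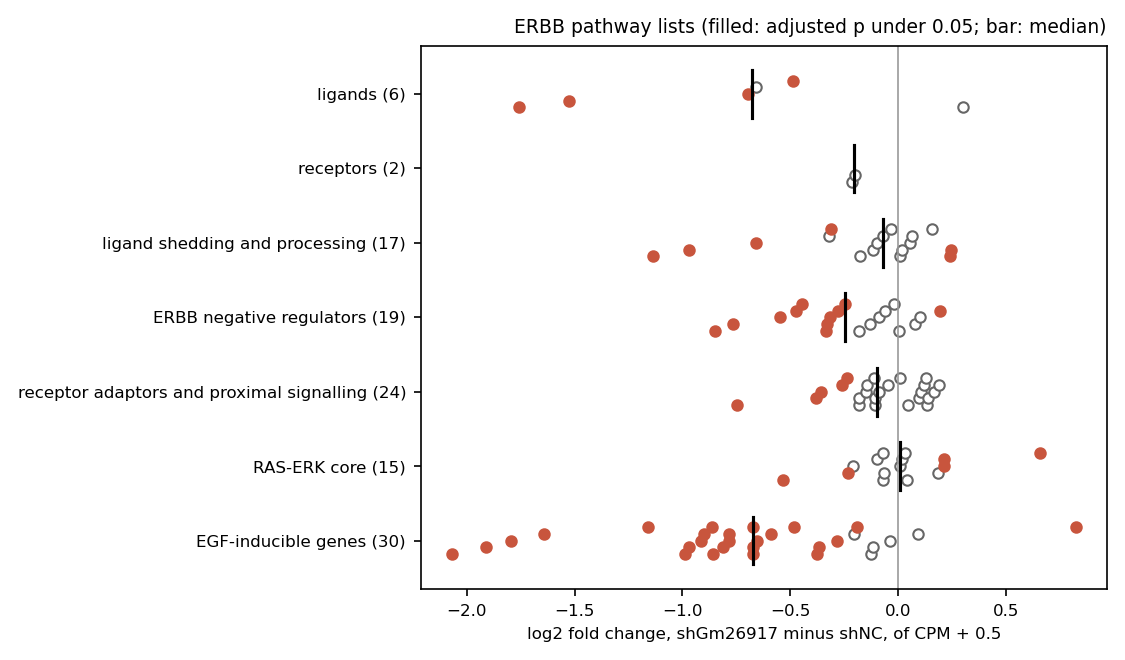
Log2 fold change (shGm26917 against shNC, CPM plus 0.5) of each listed gene in the 7 pathway lists, with the number listed in brackets, filled where the adjusted p was under 0.05; the bar is the list median. Ligands (median -0.68) and EGF-inducible genes (-0.67) lie to the left, and the RAS-ERK core (0.0098) is centred.

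The genes whose 4 library values, as deviations from the gene's own mean on the log2 scale, lay closest to those of Hbegf included Egr1 (Euclidean distance 0.0841), Mmp3 (0.0917), Ptgs2 (0.155) and Plau (0.182). Egr1 had 42.2 and 46.3 CPM in the shNC libraries and 12.3 and 12.5 CPM in shGm26917, and Mmp3 had 34.3 and 37.1 CPM against 10.4 and 9.83 CPM. With 2 libraries per group this likeness reflects mainly a fall of similar size.

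The labelled cell type was checked against markers, since ERBB ligands are made by several cell types of the ovary. For its FGSCs the study shows RT-PCR of Oct4 (Pou5f1), Ddx4, Fragilis and Blimp1, and immunofluorescence for DDX4 and OCT4. Those experiments are not part of the data used here. Of 14 germline markers, Kit, Ifitm3, Gfra1 and Zbtb16 were listed. Ddx4, Dazl and Pou5f1 were not among the listed genes, which all reached 1.003 CPM or more in at least 2 libraries. A gene not listed may thus be low rather than absent. The summed level of the 4 listed germline markers was 1310 to 1380 CPM in shNC and 1250 to 1290 CPM in shGm26917. Nearly all of it was Kit, which mast cells express too. Ifitm3, also known as Fragilis, was the germline marker called lower, with 86.8 and 99.6 CPM in the shNC libraries and 52.9 and 52.6 CPM in the shGm26917 libraries (log2 fold change -0.81, limma, adjusted p = 0.000902). Of 12 granulosa cell markers, 3 were listed (Inhba, Fst and Gja1) and all 3 fell together with the ligands, from a sum of 74.8 to 80.4 CPM to one of 39.9 to 40.7 CPM, while the defining markers Foxl2, Fshr and Amh were not listed. The mesothelial marker Msln, the only one listed of 9 epithelial and mesothelial markers, also fell (179 to 217 CPM against 103 to 120 CPM), and Krt8, Krt18 and Epcam were not listed. Of 12 mast cell markers 6 were listed, with Cpa3 and Hpgds higher and Gata2 and Ms4a2 lower. Their sum was 2270 to 2310 CPM in shNC and 2400 to 2440 CPM in shGm26917. Kit was counted here too and made up much of this sum (1279 and 1203 CPM in shNC, 1228 and 1187 CPM in shGm26917). Cpa3 went from 490 and 541 CPM to 734 and 823 CPM, and Gata2 from 477 and 467 CPM to 380 and 370 CPM. Ms4a2 was low, at 1.82 and 2.29 CPM against 0.25 and 0 CPM. Of 12 fibroblast markers 11 were listed, with 1 higher and 2 lower (1760 to 1840 CPM against 1620 to 1690 CPM). Of 9 macrophage markers 3 were listed, with 1 lower (170 to 194 CPM against 166 to 171 CPM). Of 8 endothelial markers 3 were listed, with 1 lower (9.62 to 10.8 CPM against 7.83 to 8.05 CPM). Beside these marker counts, 11.5% of all genes were called lower and 11.6% higher. The part of a changed mixture of cells in the falls of Hbegf, Ereg and Errfi1 was not tested.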

How the data were processed

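RNA-seq of 2 shNC and 2 shGm26917 FGSC libraries was compared. The authors deposited CPM per gene and library; processing notes of the submitters list mm10, RSEM 1.2.28, Bowtie2 2.1.0 and edgeR. All listed genes reached 1.003 CPM or more in at least 2 libraries. Of the values under 6 CPM, 74.8% to 77.8% per library lay within 0.1 of a whole read at the best step, too few for a count test, as RSEM estimates need not be whole. Columns of the authors' own fold changes, p-values and calls were not used. Proteins were not analysed here. Some genes that the rule below names are not reported here. Of 12701 gene IDs, 12562 were in GENCODE M21 and 12488 had the same coordinates there.

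CPM were transformed as log2(CPM + 0.5) and tested by limma 3.58.1 in R 4.3.3, two-sided, with trended, robust empirical Bayes moderation, after the script had been tested on simulated data. There, false calls were more frequent than the threshold allows when noise followed the moderated variances of the fit, and most small changes were missed when it followed the raw SD of each gene, so a call is not certain and a missing call does not show that a gene did not change. The added 0.5 CPM understates changes of low genes. Groups came from the genotype labels. Members and lists were chosen with earlier results of these data known. Genes named were the 8 members, the other listed ligands, the 3 smallest p of each list, genes behind small counts and the 5 nearest to Hbegf. Adam17, Timp2, Timp3, Grb2, Shc1, Fos, Dusp6 and Mthfd2l were added after their values were seen. Nrdc was matched by its older symbol. Alternatives were pseudocounts of 0.1 and 1, a filter of 5 CPM in 2 libraries, median-ratio and upper-quartile scaling, limma without trend and robust moderation, each library left out, and a replicate block.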

Additional observations from a re-analysis of the deposited data

How the results depend on the processing

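The calls of Hbegf, Ereg, Nrg1 and Errfi1 and their direction held under all 11 alternatives, with log2 fold changes of -1.87 to -1.65, -1.69 to -1.36, -0.77 to -0.62 and -0.89 to -0.81. Egfr (-0.42 to -0.0064) and Erbb2 (-0.23 to -0.17) were called under none that tested them, and Areg and Egfr, like Egf, were not tested under the filter of 5 CPM. Of the 6 members 3 were called lower throughout, or 4 with the replicate block and without shNC replicate 2, when Areg passed. Over all genes, 1469 were higher and 1461 lower; limma without trend and robust moderation gave 929 and 918, and leaving out a library gave 752 to 1793 higher and 832 to 1735 lower, the fewest without shGm26917 replicate 2 (752 and 832) or 1 (938 and 883). In the pathway lists without the members, 7 genes were higher, 2 with limma without trend and robust moderation and 2 to 12 with a library left out. With limma without trend and robust moderation, 6 negative regulators instead of 10 and 3 proximal signalling genes instead of 5 were called lower. With that limma setting or without either shGm26917 replicate, the genes of the RAS-ERK core called higher went from 3 to 1 and those called lower from 2 to 1. Scaling by the median ratio or upper quartile moved the median of all genes to -0.00023 and 0.0082.

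The replicate numbers are not stated to pair the libraries. Same-numbered libraries had a correlation of deviations of 0.112 over 10034 genes. The replicate block gave 1979 higher and 2003 lower genes. Among the calls it added were Areg, Gm26917 and, as higher, 1 proximal signalling gene. In the pathway lists without the members it gave 50 lower and 9 higher, against 46 and 7 in the main fit.

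Areg, Egfr and Egf rest on few reads, and the libraries of shNC, in particular replicate 1, were the shallowest.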
